A study of Mus musculus with 8 samples.

Results

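Base excision repair, mismatch repair and nucleotide excision repair are represented here by 32 genes, taken by name from the 23432 gene symbols listed for each library: 15 base excision repair genes, 6 mismatch repair genes and 11 nucleotide excision repair genes. All 32 symbols were found. Base excision repair removes single damaged bases: a DNA glycosylase that fits the lesion cuts the base from its sugar, an endonuclease nicks the backbone, and a polymerase and a ligase refill and seal the gap. Mismatch repair corrects errors left by the replication fork, with MutS proteins that find the mispair and MutL proteins that direct removal of the new strand. Nucleotide excision repair cuts out a short stretch around bulky lesions such as ultraviolet photoproducts, and its inherited loss causes xeroderma pigmentosum, a disease of sun-exposed skin.

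The study asked what the histone acetyltransferase MOF (encoded by Kat8) and its partner Kansl1, a scaffold of the NSL complex, do in mouse skin epithelium. The E16.5 control and E16.5 MOF cKO groups are epithelial cells of embryonic back skin, sorted by a Krt14-driven histone-GFP reporter, and in MOF cKO both floxed Mof alleles are deleted by Krt14-Cre. The P0.5 control and P0.5 Kansl1 cKO groups are whole epidermis of newborns, lifted from the dermis with dispase, and in Kansl1 cKO the same Cre removes exon 3 of Kansl1. Controls are wildtype or heterozygous littermates, all mice have a mixed C57Bl/6J and CD-1 background, and Krt14-Cre acts only in Krt14-expressing epithelium, so other cells in a sample keep the gene. Each group has 2 libraries of polyadenylated RNA, one per sample, and the stages also differ in isolation and sequencer. Counts on genes were 27561688 and 24957817 in E16.5 control, 22484018 and 25876862 in MOF cKO, 9108709 and 14327981 in P0.5 control, and 19774643 and 13712311 in Kansl1 cKO. The shallow P0.5 control library 1 gives the least precise values.

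Levels are given as counts, or as CPM, which are counts scaled to a common library size with edgeR's TMM factors, and SE stands for standard error. The targeted genes were checked first. Kat8 had 443 and 408 counts in E16.5 control and 248 and 329 in MOF cKO, or 14.4 and 14.7 CPM against 12.4 and 13.9 CPM. Kansl1 had 40.6 and 48.1 CPM in P0.5 control and 31.4 and 30.6 CPM in Kansl1 cKO. Both cKO libraries lay below both controls for each gene, but counts of a whole gene do not resolve the deleted exons. The 8 keratinocyte markers summed to between 35093 and 45981 CPM in the E16.5 libraries, led by Krt5, and to between 54990.0 and 85141 CPM in the P0.5 libraries, led by Krt1, and none was at 0. By Xist, E16.5 control 1 (1517 CPM, against 9.99 to 12 in the other E16.5 libraries) and P0.5 control 2 (1.23 CPM, against 371 to 426) differed in sex from the rest of their experiment, so results without them are given.

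In control epithelium the 32 genes spanned a wide range of levels per kilobase of exon. At E16.5 the highest were Ddb1, an adaptor of the ligase that marks ultraviolet damage, at 121 CPM per kilobase, Apex1, the endonuclease that cuts at abasic sites, at 85.6, the break sensor Parp1 at 47.7 and Rad23b, the partner of the damage sensor Xpc, at 42.5. The glycosylases were low, from 0.142 CPM per kilobase for Neil2 to 6.15 for Ung, with Tdg lower still at 0.0374. Tdg had 0 to 9 counts per library and failed the filter on low counts in both experiments, which leaves 31 of the 32 genes tested. The annotation also holds a processed Tdg pseudogene on chromosome 15, so the Tdg counts are uncertain.

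Calls required an adjusted p no higher than 0.01 together with more than a 1.5-fold difference. After MOF loss 7 of the 31 repair genes were called lower (Neil1, Neil3, Mbd4, Mlh3, Pms1, Pms2 and Ercc4), against 9.59% of the 13956 genes tested, and 2 were called higher (Ercc1 and Ercc5), against 10%. Fold changes were below 0 on the log2 scale for 22 genes and above 0 for 9, with a median of -0.52 beside -0.02 for all genes tested. For 20 of the 31 genes both MOF cKO libraries lay below both controls, a pattern shown by 37.7% of all genes, and for 7 both lay above, shown by 34.9%. The 32 genes were then counted by pathway. Of the 14 base excision repair genes tested, 11 had values below 0 and 3 were called lower, with a median of -0.72. Of the 6 mismatch repair genes, 5 had values below 0 and 3 were called lower, also with a median of -0.72. Nucleotide excision repair was split, with 6 of 11 genes below 0, 1 called lower, 2 called higher and a median of -0.01, which ran from -0.20 to 0.20 with each library left out and so has no stable sign. No test compared the pathways with each other. Without E16.5 control 1, the library of the other sex, 4 genes were called lower (Mbd4, Mlh3, Pms1 and Ung) and the same 2 higher, and Neil1, Neil3, Pms2 and Ercc4 lost their calls at adjusted p of 0.0120, 0.0147, 0.0377 and 0.0307 in edgeR's quasi-likelihood test. RNA was pooled over cells, so fewer cells of a type and less RNA per cell cannot be told apart.

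**Figure D1:**
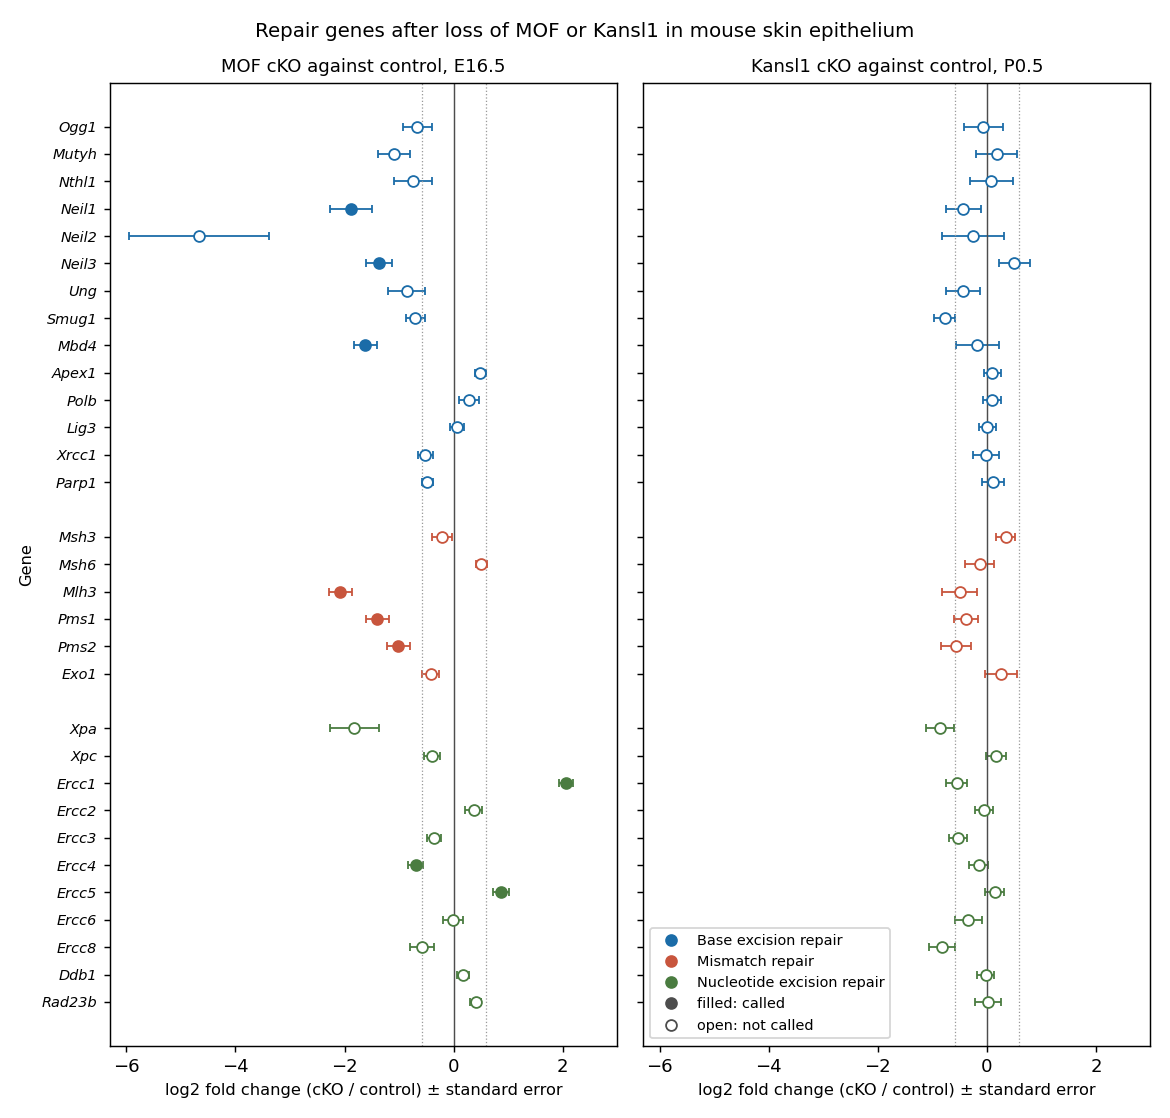
Log2 fold change (x axis, cKO over control) of each of the 31 tested repair genes (y axis, grouped by pathway), with bars for the standard error (2 libraries per group), in MOF cKO at E16.5 (left) and Kansl1 cKO at P0.5 (right). Filled points were called, and dotted lines mark the 1.5-fold threshold. On the left the 9 glycosylases from Ogg1 to Mbd4 and the MutL genes lie below 0 and Ercc1 stands alone at 2.06, while on the right no point is filled.

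Within base excision repair, 9 of the 10 glycosylase genes among the 32 could be tested. All 9 had log2 fold changes below 0 in MOF cKO, with a median of -1.10, beside 50.9% of all genes below 0. For all 9 both MOF cKO libraries lay below both controls, a pattern shown by 37.7% of all genes. The sign of the 9 was the same in each alternative in which they were fitted, and Neil2 did not pass the filter of at least 2 CPM in 2 libraries. Neil2 passed the main filter only through its control libraries (2 at the cutoff, against 0 in MOF cKO), so its place among the 9 carries no weight of its own. Mpg, a glycosylase for alkylated bases that is among the other genes of the pathway and is named here after its value was seen, was at 0.14, so the values below 0 did not extend to every glycosylase. Among the base excision repair genes of the 32, the largest called fall was in Neil1, which removes oxidized bases (chr9:57142800-57148305, minus strand): it had 187 and 194 control counts against 44 and 32 MOF cKO counts, or 6.10 and 7.0 against 2.21 and 1.35 CPM. Its groups did not overlap, and the log2 fold change was -1.88 (SE 0.390, edgeR quasi-likelihood test, adjusted p = 0.00880). Without control 1, control 2 or MOF cKO 2 the fold change ran from -1.98 to -1.57 and the adjusted p of that test rose to 0.0120, 0.0285 and 0.0130, past the threshold.

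Mbd4, which excises thymine or uracil that arises opposite guanine when a methylated or plain cytosine loses its amino group, fell from 520 and 530 counts to 105 and 152 (17.0 and 19.1 against 5.27 and 6.43 CPM). All control values were well above all MOF cKO values, with a log2 fold change of -1.62 (SE 0.213, edgeR quasi-likelihood test, adjusted p = 0.00153). The related Neil3, which also acts on oxidized bases and is known from dividing cells, had 657 and 412 control counts against 136 and 169 MOF cKO counts (21.4 and 14.9 against 6.82 and 7.15 CPM), a log2 fold change of -1.38 (SE 0.236, edgeR quasi-likelihood test, adjusted p = 0.00420). The control libraries were uneven here, yet both stayed above both MOF cKO libraries. Without control 1 the Neil3 value was -1.09 and the edgeR quasi-likelihood test gave an adjusted p of 0.0147. Neil2, the third of these oxidized-base glycosylases, was close to the counting limit, with 16 and 25 control counts against 1 and 0 MOF cKO counts. The pooled level in control was 30.6 times that in MOF cKO, with an exact 95% interval of 5.19 to 1237 that covers counting error only. Since the filter kept Neil2 through its high group, this ratio is a description, and Neil2 was not called (edgeR quasi-likelihood test, adjusted p = 0.0254).

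The other glycosylases lay below control without passing both thresholds, although with replicate number as a block Mutyh, Ung and Smug1 were called lower (edgeR quasi-likelihood test, adjusted p = 0.00262, 0.000570 and 0.000523). Mutyh, which removes adenine paired with 8-oxoguanine, had a log2 fold change of -1.10, and Ogg1, which removes 8-oxoguanine itself, had -0.67. Nthl1, for oxidized pyrimidines, was at -0.75 and ran from -1.01 to -0.44 with each library left out. The uracil glycosylases Ung and Smug1 were at -0.86 and -0.70. The Ung value rested on an uneven control pair, 637 and 1287 counts (20.8 and 46.4 CPM), beside 380 and 424 counts in MOF cKO (19.1 and 17.9 CPM). With control 1 left out Ung was called at -1.33 (edgeR quasi-likelihood test, adjusted p = 2.35e-05), and with control 2 left out it was at -0.16.

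The 5 enzymes among the 32 that act after the glycosylase were mixed, with 2 below 0, 3 above 0, a median of 0.07 and none called. Glycosylases and later enzymes were not tested against each other. Apex1 was the highest of them relative to control, with 3698 and 3402 control counts against 3578 and 3839 MOF cKO counts, or 121 and 123 against 180 and 162 CPM. Both MOF cKO libraries were above both controls after scaling, with a log2 fold change of 0.49 (SE 0.105) that stayed under the fold threshold (edgeR quasi-likelihood test, adjusted p = 0.00974). The gap-filling polymerase Polb was at 0.28 and the ligase Lig3 at 0.07, both with overlapping groups, and scaling by library size alone turned both signs. The scaffold Xrcc1, which holds Lig3, was at -0.52, and Parp1 was at -0.49 (edgeR quasi-likelihood test, adjusted p = 0.00827). Parp1 had 259 and 246 CPM in control and 178 and 183 CPM in MOF cKO. For both of these genes the MOF cKO libraries lay below both controls, as for the glycosylases. Among the other genes of the pathway, 10 of 13 were below 0, beside 50.9% of all genes. Poll, Parp2 and Lig1, which also act after the glycosylase, were called lower, 3 of 13 beside 9.59% of all genes.

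The mismatch repair genes called lower were the MutL genes Mlh3, Pms1 and Pms2, whose products pass the signal from the mispair to the cutting of the strand. Mlh3 (chr12:85234520-85270599, minus strand) had 556 and 586 control counts against 91 and 112 MOF cKO counts, or 18.1 and 21.1 against 4.57 and 4.74 CPM. The MOF cKO libraries were nearly equal and far under the controls, with a log2 fold change of -2.08 (SE 0.206, edgeR quasi-likelihood test, adjusted p = 0.000681).

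Pms1 had 454 and 386 control counts against 105 and 133 MOF cKO counts (14.8 and 13.9 against 5.27 and 5.63 CPM), a log2 fold change of -1.40 (SE 0.216, edgeR quasi-likelihood test, adjusted p = 0.00279). Pms2 had 435 and 370 control counts against 147 and 148 MOF cKO counts (14.2 and 13.4 against 7.38 and 6.26 CPM), a log2 fold change of -1.01 (SE 0.216, edgeR quasi-likelihood test, adjusted p = 0.00976). Neither gene's groups overlapped. The Pms2 call lay at the threshold and was lost without control 1, control 2 or MOF cKO 2, where its log2 fold change was -0.97, -1.06 and -0.90, and also with RLE factors (-0.99) and in one fit over all 8 libraries (-1.01). The Pms2 locus overlaps the coding genes Gm42421 and Rsph10b on the same strand, by 5794 and 934 bases, but neither is listed under these names in the counts.

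The mismatch sensors were not called. Msh6, which recognizes single mispairs, had 2857 and 2510 control counts against 2556 and 3142 MOF cKO counts, or 93.1 and 90.6 against 128 and 133 CPM. Its MOF cKO libraries were both above control, with a log2 fold change of 0.51 (SE 0.103) under the fold threshold (edgeR quasi-likelihood test, adjusted p = 0.00792). Msh3, the sensor of small loops, was at -0.22 with overlapping groups, and the exonuclease Exo1, which degrades the marked strand, was at -0.42. On the per-kilobase scale Msh6 went from a mean of 21.1 to 30.1 CPM while Mlh3 went from 2.60 to 0.616, so the sensor was already the more abundant of them in control.

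In nucleotide excision repair the opposite movements met in a single enzyme. Ercc1 and Ercc4 are the subunits of the nuclease that cuts on the 5′ side of the lesion. Ercc1 (chr7:19344778-19356524, plus strand) had 624 and 630 control counts against 1813 and 2087 MOF cKO counts, or 20.3 and 22.7 against 91.0 and 88.3 CPM. Both pairs of replicates were tight and far apart, with a log2 fold change of 2.06 (SE 0.123, edgeR quasi-likelihood test, adjusted p = 0.000175), which ranked 35 of 13956 genes by adjusted p.

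Ercc4 (chr16:13109684-13150617, plus strand), the catalytic subunit, had 1042 and 889 control counts against 394 and 497 MOF cKO counts, or 34.0 and 32.1 against 19.8 and 21.0 CPM. Its groups were separate in the other direction, with a log2 fold change of -0.69 (SE 0.140, edgeR quasi-likelihood test, adjusted p = 0.00784). With any 1 of the 4 libraries left out the value stayed between -0.74 and -0.65, and the adjusted p from the same quasi-likelihood test was 0.0307 and 0.0134 without control 1 or 2 and 0.0236 and 0.0135 without MOF cKO 1 or 2, so the call was lost. Per kilobase, the means of the subunits were 6.92 for Ercc1 and 4.91 CPM for Ercc4 in control, and 28.8 and 3.03 CPM in MOF cKO.

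Ercc5, the nuclease for the 3′ side, was also higher, with 1456 and 1047 control counts against 1480 and 1935 MOF cKO counts, or 47.5 and 37.8 against 74.3 and 81.9 CPM. The groups did not overlap, and the log2 fold change was 0.87 (SE 0.145, edgeR quasi-likelihood test, adjusted p = 0.00372). Scaling by library size alone, which moved the median of all genes from -0.02 to -0.32, put Ercc5 at 0.57 and ended its call. Xpa, which verifies the lesion and brings in the nucleases, had the lowest value of the 11 genes, with 217 and 124 control counts against 41 and 29 MOF cKO counts (7.07 and 4.47 against 2.06 and 1.23 CPM). Both MOF cKO values were under both controls. At these low and uneven counts the log2 fold change of -1.82 (SE 0.449) missed the adjusted p threshold (0.0168 from edgeR's quasi-likelihood test). Xpa passed it in DESeq2, with library size alone, with no filter on low counts and with replicate number as a block. It also passed in one fit over all 8 libraries and without control 2.

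The remaining nucleotide excision repair genes had smaller values, and none was called. Among the damage sensors, Xpc was at -0.39, Rad23b at 0.40 and Ddb1 at 0.18, the last turning negative under library size alone. The TFIIH helicase genes, whose products open the DNA around the lesion, were at 0.37 for Ercc2 and -0.36 for Ercc3. Ercc8 and Ercc6, which start repair where RNA polymerase has stalled, were at -0.58 and -0.01.

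**Figure D2:**
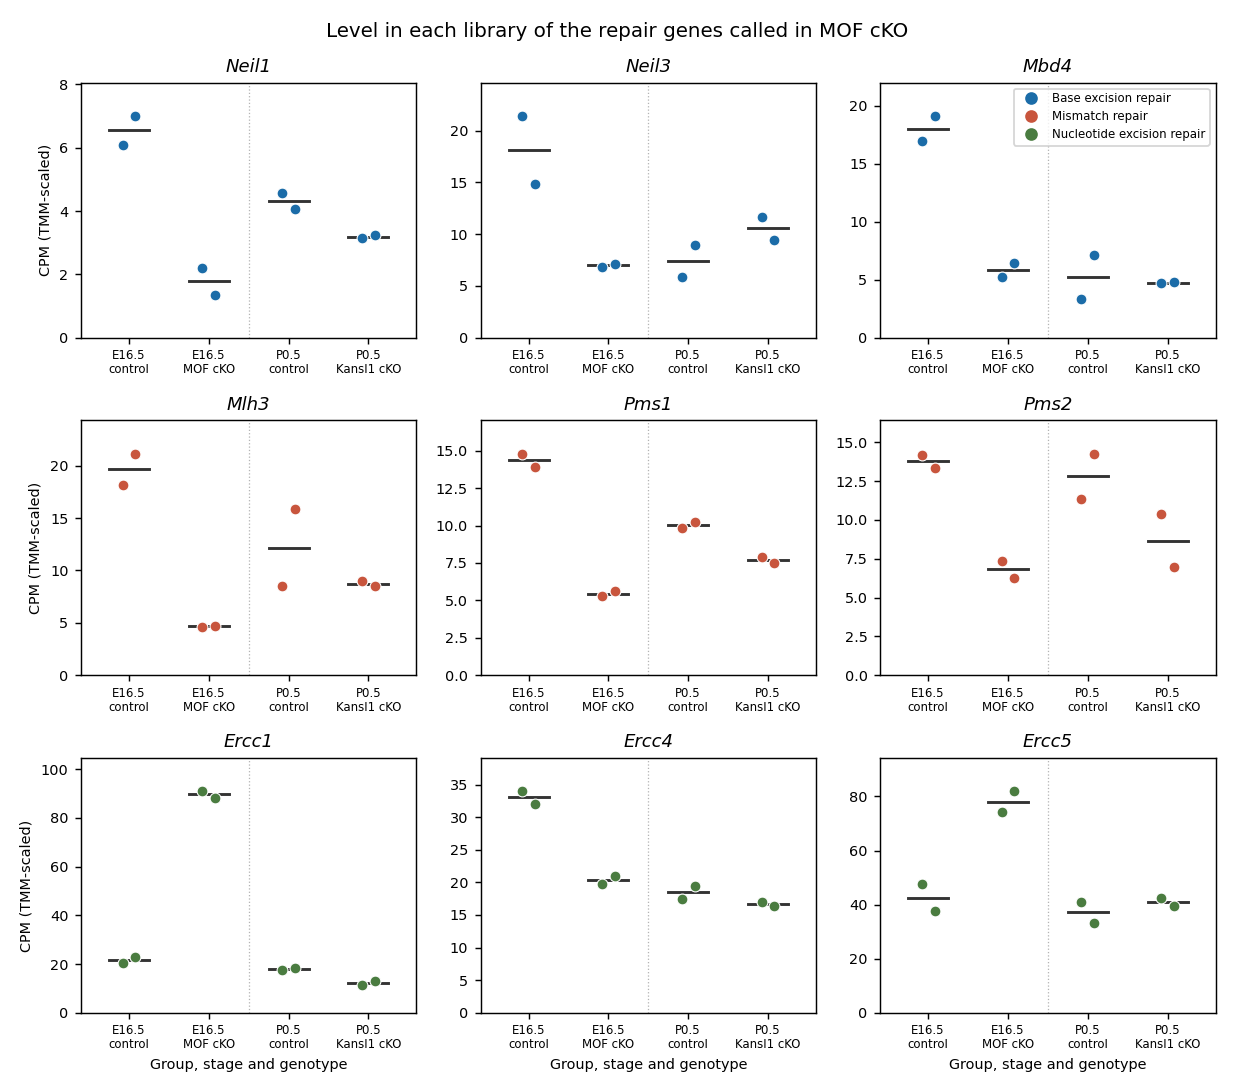
Level (y axis, CPM, TMM-scaled within each experiment) in each library (points) and group mean (lines, n = 2) of the 9 repair genes called in MOF cKO, by group (x axis). The dotted line parts the E16.5 and P0.5 experiments, which were scaled separately. In every panel the MOF cKO points lie apart from the E16.5 control points, and Ercc1 and Ercc5 are the genes where they lie above.

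The other genes of these pathways (47, all tested) had 35 values below 0 in MOF cKO, a median of -0.34, 9 called lower (19.1%) and 1 called higher (2.13%). Among all genes 50.9% were below 0, 9.59% were called lower and 10% higher. By pathway, with some genes in more than 1 list, 10 of 13 base excision, 14 of 15 mismatch and 26 of 36 nucleotide excision repair genes were below 0, with medians of -0.34, -0.39 and -0.33. In the wider nucleotide excision list 7 were called lower (19.4%) and 1 higher (2.78%), and the lists were not tested against each other. In order of adjusted p the called genes were Cetn2, the small partner of Xpc, at -1.90, Mnat1, a subunit of the TFIIH kinase, at -1.26, the break sensor Parp2 at -0.93, the clamp loader genes Rfc1 and Rfc4 at -0.90 and -0.95, Gtf2h1, a TFIIH core subunit, at 0.74, the ligase gene Lig1 at -0.62, the polymerase gene Poll at -2.73, the TFIIH gene Gtf2h4 at -1.33 and the ultraviolet damage sensor Ddb2 at -1.03. Core subunits of TFIIH were thus called in both directions. Xpc and Ddb2 are also on the list of p53 targets used here, and whether p53 drives them in mouse skin was not tested. Of the 16 genes on that list, 14 were called higher (median 2.04), while Ddb2 was called lower and Xpc had a value below 0.

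Markers of proliferation and of other cells were read beside these results. Of 16 proliferation genes, 12 had values below 0 in MOF cKO and 2 were called lower (12.5%, near the 9.59% of all genes), with a median of -0.32, and their summed level was 3534 and 3211 CPM in control and 2762 and 2869 CPM in MOF cKO. All 12 macrophage markers had values above 0 and 8 were called higher (66.7%, beside 10% of all genes), with sums of 20.1 and 45.5 CPM in control and 110 and 138 CPM in MOF cKO. The control means of the 8 called markers ran from 0.0652 CPM (Tyrobp) to 0.549 CPM (Csf1r), close to the counting limit, so these calls are a description. Among the 12 markers Cd68 was the most abundant in each E16.5 library, and Tyrobp was at 0 in control 2. The 7 fibroblast markers summed to 917 and 1551 CPM in control (most abundant Dcn) and 1540 and 2149 CPM in MOF cKO (most abundant Col3a1), with 6 above 0 and none called. The 5 melanocyte markers, led by Dct, summed to 13.5 and 45.5 CPM against 18.4 and 71.5 CPM, and the 4 endothelial markers, led by Pecam1, to 5.87 and 6.64 CPM against 10.2 and 20.9 CPM, with Pecam1 called higher. Of the 3 T cell markers Cd3d and Cd3g were at 0 in all E16.5 libraries, and Cd3e had 0 and 0.0361 CPM in control and 0.452 and 0.0847 CPM in MOF cKO. Of the 8 keratinocyte markers, 5 had values above 0 and 3 below 0. Krt1 at 1.67 and Krt10 at 1.12 were called higher (25%, beside 10% of all genes), and Trp63 at -0.57 stayed under the fold threshold. The part of proliferation, of these keratinocyte markers and of the other cells in the repair gene values was not tested.

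After Kansl1 loss, edgeR's quasi-likelihood test called 0 of the 31 repair genes, and DESeq2 also called 0. The share of all 13031 genes called was 0% lower and 0% higher under edgeR's quasi-likelihood test, while DESeq2 called 55 lower and 35 higher. At an unadjusted p under 0.05 there were 5 of the 31 repair genes (16.1%), all with values below 0, beside 2045 of all genes (15.7%), of which 1077 (8.26%) were below 0. Without P0.5 control 2, the library of the other sex, the repair genes again had 0 calls. The median of the 31 was -0.06 beside 0.01 for all genes. For 9 genes both Kansl1 cKO libraries lay below both controls, against 22.6% of all genes, and for 2 both lay above, against 26.1%. The pathway medians were -0.0016 for base excision, -0.25 for mismatch and -0.15 for nucleotide excision repair. The replicate standard deviations of these medians were 0.209, 0.221 and 0.0385 in the same order. With each library left out in turn the mismatch median took both signs, so it has no stable sign.

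The lowest adjusted p among the 31 genes in Kansl1 cKO was that of Smug1, at 0.204 from edgeR's quasi-likelihood test. Smug1 had 172 and 354 control counts against 244 and 167 Kansl1 cKO counts, or 19.7 and 22.9 against 11.8 and 13.2 CPM, a log2 fold change of -0.77 (SE 0.193). Its groups did not overlap, and in MOF cKO, too, its value was below 0. The other genes at an unadjusted p under 0.05 were all from nucleotide excision repair: Xpa at -0.86, Ercc8 at -0.82, Ercc1 at -0.55 and Ercc3 at -0.53. Xpa had 114 and 290 control counts against 165 and 123 Kansl1 cKO counts (13.0 and 18.7 against 7.99 and 9.72 CPM). Ercc1 had 17.6 and 18.3 CPM in control and 11.6 and 13.0 CPM in Kansl1 cKO. Both genes were lower in both Kansl1 cKO libraries than in either control.

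Among the 31 genes the largest value above 0 in Kansl1 cKO was that of Neil3, with 51 and 138 counts in control and 241 and 120 in Kansl1 cKO (5.84 and 8.91 against 11.7 and 9.48 CPM), a log2 fold change of 0.50. Among the 6 mismatch repair genes Msh3 was highest at 0.34, from 227 and 467 counts to 771 and 431, and Pms2 lowest at -0.56, from 99 and 221 counts to 214 and 88. Raw counts here mostly follow library depth: in CPM, Pms2 was at 11.3 and 14.3 in control and 10.4 and 6.95 in Kansl1 cKO. Mlh3 and Pms1 were at -0.50 and -0.38, Exo1 at 0.26 and Msh6 at -0.13. With each library left out Mlh3 ran from -0.86 to 0.015, Exo1 from -0.15 to 0.54 and Msh6 from -0.48 to 0.17. Pms1 stayed below 0. Xpc had the highest value of the 11 nucleotide excision repair genes, 0.17, from 228 and 521 counts to 713 and 416, with overlapping groups (26.1 and 33.6 against 34.5 and 32.9 CPM).

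The rest had values of either sign. In base excision repair they were -0.43 for Neil1 and Ung, -0.26 for Neil2, -0.17 for Mbd4, -0.06 for Ogg1, 0.18 for Mutyh and 0.08 for Nthl1, with 0.12 for Parp1, 0.10 for Apex1 and Polb, 0.01 for Lig3 and -0.01 for Xrcc1. With each library left out only Neil1 and Ung of these kept their sign. Ung ran from -0.93 to -0.098 and Mbd4 from -0.59 to 0.48. In nucleotide excision repair they were -0.34 for Ercc6, -0.15 for Ercc4, -0.06 for Ercc2, -0.02 for Ddb1, 0.15 for Ercc5 and 0.03 for Rad23b. With each library left out Ercc6, Ercc4 and Ercc2 stayed below 0, while Ddb1, Ercc5 and Rad23b took both signs. The other 47 pathway genes had 0 calls from edgeR's quasi-likelihood test, 9 at an unadjusted p under 0.05 and below 0 (19.1%, beside 8.26% of all genes), none above 0, and a median of -0.08.

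No marker was called in this comparison, and their levels are given as a description. The 5 melanocyte markers, led by Dct, summed to 428 and 472 CPM in P0.5 control and 911 and 1025 CPM in Kansl1 cKO, all 5 with values above 0. The 7 fibroblast markers summed to 1746 and 1091 CPM in control and 925 and 738 CPM in Kansl1 cKO, 6 with values below 0, led by Col3a1 in control 1 and Dcn elsewhere. The 12 macrophage markers summed to 208 and 241 CPM against 301 and 330 CPM (led by Csf1r and C1qb), the 3 T cell markers to 6.18 and 4.26 CPM against 11.1 and 11.2 CPM, and the 4 endothelial markers to 6.64 and 3.94 CPM against 3.44 and 2.92 CPM, with Kdr at 0 in Kansl1 cKO 2. Proliferation genes summed to 1231 and 1556 CPM in control and 1895 and 1391 CPM in Kansl1 cKO. The part of these cells in the repair gene values was not tested.

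A call in one experiment and not in the other does not by itself show a difference, so the effects were compared directly as the MOF effect minus the Kansl1 effect over all 8 libraries. Stage, isolation and sequencer differ along with the deleted gene, and their parts cannot be told apart. Only Ercc1 was called among the 31 repair genes, with a higher effect in MOF cKO by 2.58 on the log2 scale (SE 0.211, edgeR quasi-likelihood test, adjusted p = 0.000643), while 1.76% of 14565 genes were called higher and 1.17% lower. Ercc1 lay above control in both MOF cKO libraries and below control in both Kansl1 cKO libraries. For Neil3, Mlh3 and Pms1 the effects differed by -1.91, -1.61 and -1.05, and their adjusted p of 0.0165, 0.0328 and 0.0437 from edgeR's quasi-likelihood test missed the threshold. For Mbd4 and Pms2 the differences were -1.47 and -0.48 (adjusted p = 0.0648 and 0.392 from the same quasi-likelihood test), so these falls in MOF cKO were not shown to be absent from Kansl1 cKO.

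Some of the repair genes start close to a neighbour on the opposite strand. By GENCODE M21, and with Msh3 not used here, 10 of 31 (32.3%) start within 1000 bases of a coding gene on the opposite strand, against 1925 of 12675 tested coding genes (15.2%), and the shares were not tested against each other. In MOF cKO these 10 partners had values of both signs, 5 below and 5 above 0. Of the 10, 2 were called lower and 1 was called higher, beside 9.59% called lower and 10% called higher among all genes. Mbd4 and Ift122, a subunit of the ciliary transport machinery, start 99 bases apart and both were called lower: Ift122 had 742 and 713 control counts against 118 and 93 MOF cKO counts, a log2 fold change of -2.35 (SE 0.236, edgeR quasi-likelihood test, adjusted p = 0.000691). Nthl1 at -0.75 faces Tsc2, a brake on growth signalling, over 50 bases, and Tsc2 was called lower at -0.70. Pms1 and Ormdl1, 77 bases apart, were at -1.40 and -0.67, whereas Pms2 and Aimp2, 117 bases apart, were at -1.01 and 0.39, and Mutyh and Toe1, 83 bases apart, at -1.10 and 0.70. The called rise was in Pinlyp, which faces Xrcc1 over 171 bases and went from 4 and 2 counts to 85 and 81. Pinlyp passed the filter on low counts only through its MOF cKO libraries, so its call is a description and carries no weight of its own. The other pairs were Apex1 with Osgep, Xpc with Lsm3, Ercc8 with Ndufaf2 and Ddb1 with Tkfc.

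The Ercc1 locus needs care in reading. Its 3′ end overlaps Cd3eap on the opposite strand by 511 bases (Cd3eap, chr7:19356014-19359483), and Ppp1r13l, an inhibitor of p53, follows at chr7:19359749-19378533. In MOF cKO Cd3eap had a log2 fold change of 0.82 (edgeR quasi-likelihood test, adjusted p = 0.00551) and Ppp1r13l of 1.27 (adjusted p = 0.000441), both smaller than that of Ercc1. Among the same 31 genes, 9 overlap a coding gene on the other strand (Ogg1, Tdg, Apex1, Lig3, Msh6, Xpa, Ercc1, Ercc2 and Ddb1), most of all Xpa, which shares 17057 bases with Ncbp1. These overlaps are of whole gene spans with introns, and the exons of Xpa total 1894 bases. The library kit keeps the strand, but the strand setting of the counting is not given in the sources used here. How reads in the shared stretches were counted is therefore not known. Reads set aside as ambiguous between genes made up 0.95% to 1.31% of each library and were not used.

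RefSeq promoter sequences (GRCm38.p6) were matched for 27 of the 32 genes, all but Neil2, Polb, Exo1, Xpc and Ercc3, and the 250 bases before the start were searched on both strands for motifs of factors known from cilia, the cell cycle and mitochondria. The RFX half-site GTTGCC was in 0 of 27, against 10.5% of 27025 promoters. An E2F form (TTTCCCGC, TTTCGCGC, TTTGCCGC or TTTGGCGC) was in 2 of 27, Nthl1 and Msh3 (7.41% against 1.91%), and the NRF1 core GCATGCGC in 2 of 27, Mlh3 and Xpa (7.41% against 2.32%). A match is a run of letters and not a shown binding site. A missing match does not show that no factor binds, since only these exact forms in the 250 bases were searched. The promoter of Mlh3, the largest called fall among the 32 genes, is shown at chr12:85270600-85270849 and the stretch between the starts of Mbd4 and Ift122, a pair called lower together, at chr6:115853372-115853469, both on the minus strand, 5′ to 3′. Capitals mark the NRF1 core, read on the opposite strand, and the second stretch holds none of the motif forms searched. The article reports that Ift122 shares its promoter with another gene and that MOF and Rfx2 bind there.
Mlh3: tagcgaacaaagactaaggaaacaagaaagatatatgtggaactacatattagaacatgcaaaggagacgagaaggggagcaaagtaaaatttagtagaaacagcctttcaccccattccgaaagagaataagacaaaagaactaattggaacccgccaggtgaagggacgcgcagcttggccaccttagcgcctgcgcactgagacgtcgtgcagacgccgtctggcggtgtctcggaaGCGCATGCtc
Mbd4 to Ift122: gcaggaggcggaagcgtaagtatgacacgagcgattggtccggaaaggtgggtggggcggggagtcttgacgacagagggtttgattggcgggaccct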

How the data were processed

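The deposited files hold the count of reads on each gene in each of the 8 libraries, made by the authors from paired reads with HTSeq on mm10 and not normalized. The article names HISAT2 as the aligner and the submitters' processing notes name TopHat2, and which one made these files is not known. Entries that name no gene took up 21.1% to 26.0% of each library's reads and were not used.

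The counts were analysed in R 4.3.3. Each experiment was fitted alone: genes were filtered with filterByExpr, scaled with TMM and tested with the quasi-likelihood test of edgeR 4.0.16 with Benjamini-Hochberg adjustment over all genes tested. The thresholds (adjusted p no higher than 0.01, more than a 1.5-fold difference) follow the article. The difference between the effects was a contrast in a fit over all 8 libraries. Standard errors are the log2 fold change divided by the square root of the F value. The code was tested on simulated data. Alternatives were DESeq2 1.42.0, RLE factors, library size alone, other filters, other thresholds, a replicate block, one fit over all libraries and leaving out each library. Labels do not say that each library is a separate animal, so p-values measure the spread between these samples. With 2 libraries per group few values enter that spread, and edgeR moderates it with all genes.

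Positions and exon lengths came from GENCODE M21 (mm10), promoters from RefSeq (GRCm38.p6). The interval for Neil2 is exact and binomial (scipy 1.17.1), and figures were drawn with matplotlib 3.10.9. All 32 genes are named, with counts in each library for those called and for the largest rise and fall of each pathway, and the other pathway genes are named where called, at most 10 per comparison in order of adjusted p. Neighbouring genes were named after their values were seen. The members and lists were chosen with earlier results of these data known. Single-cell, chromatin and protein data were not analysed here.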

Additional observations from a re-analysis of the deposited data

How the results depend on the processing

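Among the genes called in MOF cKO, directions held better than calls. Mbd4, Mlh3, Pms1 and Ercc1 kept their calls in MOF cKO under every alternative that recomputed them, and no called gene changed sign. In MOF cKO the repair genes called lower (7) became 15 with library size alone, 11 with no filter on low counts, 11 at an adjusted p of 0.05 and 4 to 6 with each library left out (4 without control 1 or MOF cKO 2), while all genes called lower (1338) became 2743, 2197, 2296 and 1236 to 1332. The repair genes called higher (2) became 1 with library size alone and 4 with no fold threshold, and all genes called higher (1395) became 769 with library size alone. That setting moved the median of all genes from -0.02 to -0.32. The TMM factors it leaves out were 1.11 and 1.11 in E16.5 control and 0.886 and 0.913 in MOF cKO. Why these factors differ between the groups was not tested. With library size alone the medians were -1.03 for base excision, -1.02 for mismatch and -0.32 for nucleotide excision repair, beside -0.32 for all genes. With each library left out they ran from -0.85 to -0.58, from -0.75 to -0.68 and from -0.20 to 0.20, so the nucleotide excision median has no stable sign.

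With the replicate block, 11 repair genes and 2263 of all genes were called lower in MOF cKO. The methods describe the samples as pairs with littermate controls but do not say which libraries form a pair, and same-numbered libraries deviated weakly together (r = 0.206 across genes). If the numbers do mark pairs, the unpaired fit misses the 4 calls that the block adds (Mutyh, Ung, Smug1 and Xpa). In Kansl1 cKO the correlation was -0.202, and a crossed pairing, chosen after seeing the data, called 1 gene lower and 0 repair genes. The replicate block itself changed no call in Kansl1 cKO.

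In Kansl1 cKO 0 repair genes were called under any alternative. All genes called lower (0 in edgeR's quasi-likelihood test, 1077 at an unadjusted p under 0.05) became 55 in DESeq2, 1 with library size alone, 117 with no filter and 4 to 197 with each library left out. Genes called higher (0, with 968 at an unadjusted p under 0.05) became 35 in DESeq2, 73 with no filter and 0 to 76 with each library left out. The mismatch repair median ran from -0.47 to 0.091 with each library left out, and the nucleotide excision median from -0.29 to -0.12, with -0.21 by library size alone and -0.19 with at least 2 CPM in 2 libraries. Repair genes whose effects differed between the experiments (1) became 2 in DESeq2, 3 with no filter and 4 at an adjusted p of 0.05. The share of all genes was not counted under these alternatives, so these counts are a description. The cause of these shifts was not tested. A group left with 1 library was assumed to vary like the others.

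The count of libraries, and low counts for Ogg1, Neil1, Neil2, Nthl1, Mutyh and Xpa, may limit what can be called, which was not tested. A missed threshold does not show equal levels. Mutyh and Smug1 were called lower in 4 alternatives, Xpa in 7, Ung in 3 and Neil2 only at an adjusted p of 0.05. Xrcc1, Exo1, Xpc and Ercc3 were called only with library size alone, and Parp1 there and with no fold threshold.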

Other observations

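Between the control groups, scaled together over all 8 libraries and given as a description since stage, isolation and sequencer differ at once, several repair genes stood far apart. Xrcc1, Exo1, Parp1, Mutyh, Mbd4 and Nthl1 had lower means in P0.5 control than in E16.5 control, by log2 differences of -1.92, -1.83, -1.62, -1.62, -1.56 and -1.32. Xrcc1 and Exo1 went from 78.8 to 20.8 CPM and from 30.9 to 8.68 CPM. Polb and Xpa went the other way, by 1.81 and 1.68, from 24.9 to 87.2 CPM and from 5.32 to 17.1 CPM. Smug1, Ogg1, Ercc3, Ercc5, Msh3 and Xpc had log2 differences that round to between -0.03 and 0.03. Ercc1 had nearly the same mean in both control groups, 19.9 and 19.3 CPM, beside 82.7 CPM in MOF cKO, and the part of stage in that level was not tested.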
